A study of Mus musculus with 9 samples.

Results

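The 10 genes described here encode extracellular matrix proteins of connective tissue and factors that mark tendon: the small leucine-rich proteoglycans biglycan (Bgn), decorin (Dcn), asporin (Aspn), lumican (Lum), fibromodulin (Fmod), prolargin (Prelp) and osteoglycin (Ogn), and the tendon genes tenomodulin (Tnmd), scleraxis (Scx) and cartilage oligomeric matrix protein (Comp). They were taken by gene symbol from tables of 55335 genes, each matched 1 row, and all 10 were among the 18259 genes that passed a filter on low counts. RNA sequencing was done on leg muscles of 9 WT c57b6l mice in 3 groups of 3, with 1 library a mouse. Asp+Pep mice had received a peptide hydrogel together with aspirin, a cyclooxygenase inhibitor that lowers prostaglandin synthesis. Asp mice had received aspirin alone, and Control mice were left untreated. Every mouse, Control mice included, had gone through the model that the labels call hindlimb suspension ischemia. The labels give no sex, age, dose or time for any group. A hydrogel without aspirin and uninjured muscle were not analysed here, so what the hydrogel adds can be read only on top of aspirin.

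Small leucine-rich proteoglycans are secreted proteins built around leucine-rich repeats, and most carry chondroitin, dermatan or keratan sulphate chains. They bind collagen and set the diameter and spacing of its fibrils, and biglycan and decorin also bind growth factors such as TGF-beta. In skeletal muscle they are made mainly by the fibroblasts of the connective tissue around fibres and bundles, and they are abundant in tendon and in the attachments of muscle to it. Scleraxis is the basic helix-loop-helix transcription factor of tendon progenitors, and tenomodulin is a membrane protein of mature tendon cells. Such transcription factors bind the E-box, a short motif with the letters CANNTG.

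Most of the proteoglycan genes lie close to relatives. Coordinates are from GENCODE vM21 on mm10. Dcn and Lum stand with the related genes Kera and Epyc in 202846 bp of chromosome 10 (chr10:97479609-97682454). Aspn and Ogn stand with Ecm2 and Omd at chr13:49504810-49624501, and Prelp and Fmod with Optc at chr1:133897199-134048277. No other protein-coding gene lies inside any of these 3 stretches on its own, although Aspn and Ogn both lie within the span of Cenpp, which runs on the opposite strand and shares 7 and 0 exonic bases with them. Scx, a gene of 1 exon at chr15:76457452-76459458, lies inside Bop1, also on the opposite strand and with 0 shared exonic bases. Bgn (chrX:73483602-73495933), Tnmd (chrX:133850980-133865577) and Comp (chr8:70373558-70382066) stand alone.

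Promoter sequences of 300 bases, most of them before the gene's start, were available from RefSeq (GRCm38.p6) for 6 of the 10 genes. The 4 shown are from 2 pairs whose levels ran together across libraries, Bgn with Fmod and Aspn with Ogn, as described below. Each is written 5′ to 3′ on the gene's own strand, here always the plus strand. Capitals mark matches on either strand to the E-box (CANNTG), to the TATA box (TATAAA) and to the GC box (GGGCGG).
Bgn, chrX:73483351-73483650: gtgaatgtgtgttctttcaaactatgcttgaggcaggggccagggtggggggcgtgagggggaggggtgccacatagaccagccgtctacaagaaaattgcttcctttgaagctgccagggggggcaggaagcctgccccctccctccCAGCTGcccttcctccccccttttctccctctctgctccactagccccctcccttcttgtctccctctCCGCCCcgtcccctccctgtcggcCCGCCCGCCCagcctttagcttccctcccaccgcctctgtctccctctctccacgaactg
Fmod, chr1:134037004-134037303: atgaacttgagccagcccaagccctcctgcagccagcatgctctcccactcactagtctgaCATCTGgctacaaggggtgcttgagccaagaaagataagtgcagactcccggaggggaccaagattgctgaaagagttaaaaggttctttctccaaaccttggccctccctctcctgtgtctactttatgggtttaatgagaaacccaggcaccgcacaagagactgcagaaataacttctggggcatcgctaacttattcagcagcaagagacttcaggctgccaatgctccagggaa
Aspn, chr13:49544193-49544492: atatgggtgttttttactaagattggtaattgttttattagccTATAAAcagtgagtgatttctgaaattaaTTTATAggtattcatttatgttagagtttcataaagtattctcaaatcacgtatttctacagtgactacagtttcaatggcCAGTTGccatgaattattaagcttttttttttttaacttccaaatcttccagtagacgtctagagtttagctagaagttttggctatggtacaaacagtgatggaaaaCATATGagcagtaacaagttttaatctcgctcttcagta
Ogn, chr13:49607765-49608064: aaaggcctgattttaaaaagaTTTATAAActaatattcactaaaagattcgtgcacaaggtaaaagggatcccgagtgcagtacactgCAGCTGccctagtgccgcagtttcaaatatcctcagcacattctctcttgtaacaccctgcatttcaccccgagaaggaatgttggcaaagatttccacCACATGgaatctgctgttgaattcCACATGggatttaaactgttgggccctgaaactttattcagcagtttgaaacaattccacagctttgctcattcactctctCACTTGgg
The Bgn promoter held 1 E-box, 102 bases before the start, and 3 GC-box matches, the last 2 overlapping each other, and its GC content was 63.7%. The Fmod promoter held 1 E-box, 189 bases before the start, and neither of the other motifs, at a GC content of 51.0%. The pair with correlated levels was thus unlike in these motifs. Aspn had a promoter with 31.0% GC, 2 TATA-box matches and 2 E-boxes, and Ogn one with 42.3% GC, 2 overlapping TATA-box matches and 4 E-boxes. All of these matches to TATAAA lay at least 178 bases before the start. For scale, 72.3% of 32851 RefSeq promoters of this length held an E-box, 13.6% a TATA box and 35.7% a GC box, and the median GC content was 52.7%. Prelp held 1 E-box, and none of the 3 motifs occurred in the window of Tnmd. A match is only a run of letters, and no factor's binding was measured.

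The libraries of a group were not alike. Total counts ran from 32197791 to 48170537. On the first principal component of 14572 genes, which held 51.9% of the variance, Asp replicate 1 lay at -152 and Asp+Pep replicate 3 at 101, with the other 7 libraries between -49.2 and 39.2. The summed level of 21 muscle fibre genes was 30827.7 CPM in Asp replicate 1 and between 127443 and 378483 CPM in the other 8 libraries, so all 9 libraries carried the RNA of the labelled tissue. CPM are counts scaled to a common library size by TMM, a method that centres the bulk of genes. Since whole tissue was sequenced, fewer cells of a type and less RNA per cell cannot be told apart in any value below. The median over the 10 genes and the count at an unadjusted p are also given without these 2 libraries.

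Compared per length, as FPKM (fragments per kilobase, scaled by depth, from the authors' table), the 10 genes differed widely in level in leg muscle. Dcn, the commonest decorating proteoglycan of collagen I fibrils, averaged 125 FPKM over the 9 libraries and lay above Lum (84.9 FPKM) in 9 of 9. Lum lay above Bgn (51.0 FPKM) in 7 of 9. Aspn and Ogn, at 24.9 and 24.1 FPKM, could not be ordered, since Aspn was the higher in 4 of 9 libraries. Prelp averaged 12.0 FPKM and Fmod 4.13 FPKM, each above the next in 9 of 9. The tendon genes were lowest: Tnmd averaged 2.25 FPKM, Comp 1.68 FPKM and Scx 0.804 FPKM, with Comp above Scx in only 6 of 9 libraries. Dcn, Lum and Bgn were thus far above the tendon genes, whereas Fmod was under 2-fold above Tnmd on average. All 10 genes were detected in every library, the lowest count being 31 (Scx). Prelp was the steadiest, with a coefficient of variation of 18.03% in CPM over all libraries, and Comp the least steady, with 137%.

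**Figure D1:**
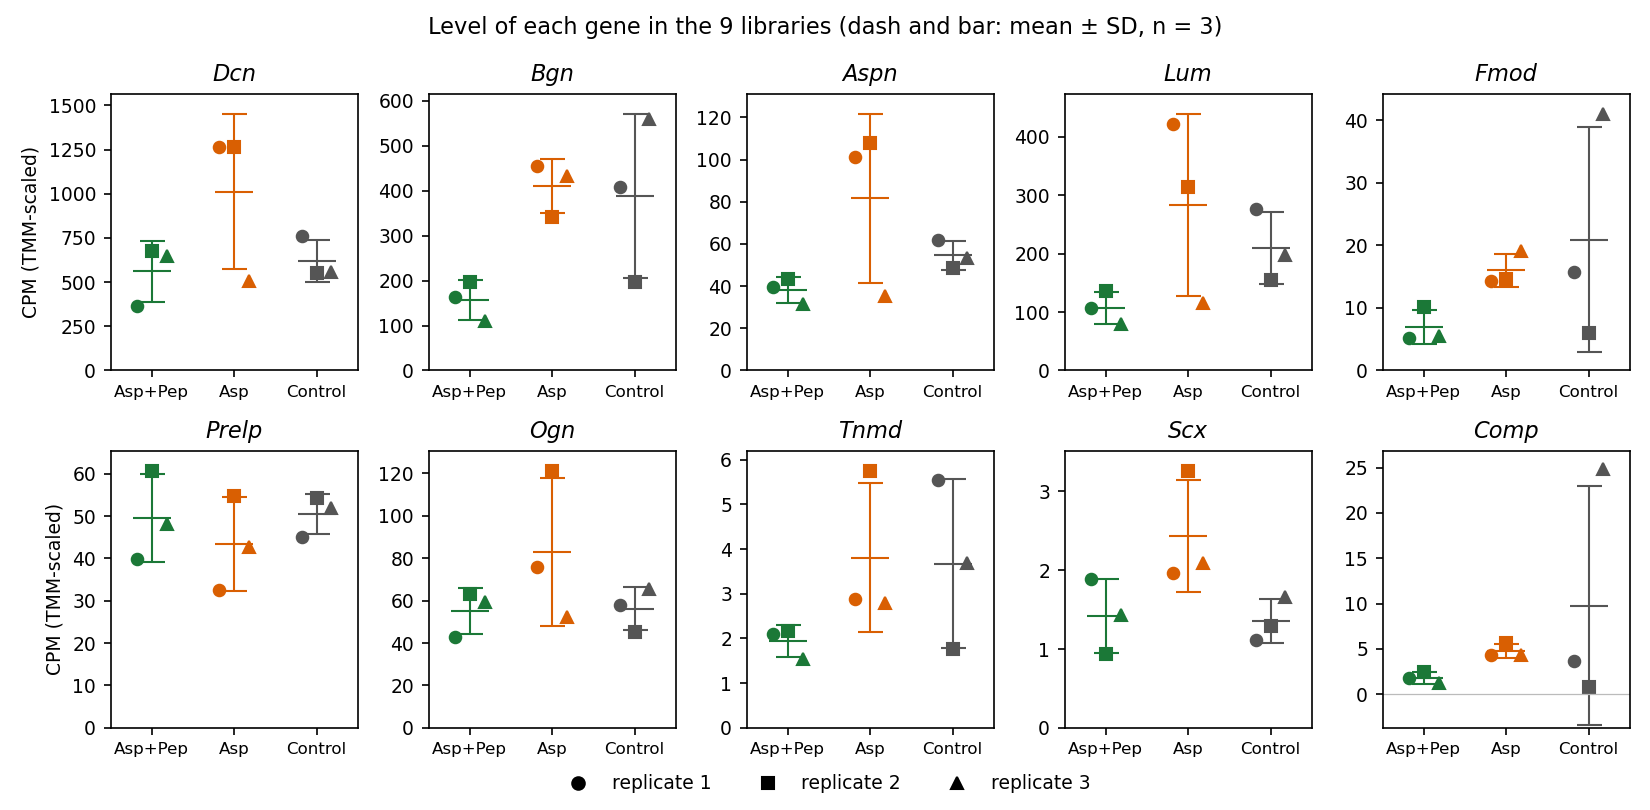
Level of each of the 10 genes in every library, in TMM-scaled CPM, by group; points are libraries, dashes and bars the mean and SD of 3 libraries, and the SD bar of Comp in Control passes below 0 because 1 library sets it. Bgn in Asp+Pep lies between 109 and 197 CPM, below all Asp libraries, and Comp in Control spans 0.759 to 24.9 CPM.

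Bgn and Dcn, close paralogues that both carry chondroitin or dermatan sulphate, did not follow each other. Bgn stood at 164, 197 and 109 CPM in Asp+Pep, at 455, 341 and 433 CPM in Asp and at 408, 196 and 560 CPM in Control. All Asp+Pep libraries lay below all Asp libraries, and they overlapped Control only through Control replicate 2, whose 196.3 CPM lay just under the highest Asp+Pep value of 196.5 CPM. Dcn stood at 364, 677 and 647 CPM in Asp+Pep, at 1266, 1266 and 504 CPM in Asp and at 759, 549 and 557 CPM in Control. Its 2 highest libraries were both Asp, while the third Asp library lay below all of Control, so the groups overlapped throughout. Aspn, which competes with decorin for collagen, stood at 39.7, 43.6 and 31.3 CPM in Asp+Pep, at 101, 108 and 35.5 CPM in Asp and at 62.1, 48.5 and 53.5 CPM in Control. Every Asp+Pep library lay below every Control library, and the same Asp library, replicate 3, that was low for Dcn was low for Aspn.

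Lum, a keratan sulphate proteoglycan, stood at 107, 136 and 80.3 CPM in Asp+Pep, at 421, 314 and 115 CPM in Asp and at 276, 154 and 197 CPM in Control. As for Aspn, the Asp+Pep libraries were all below Control, and Asp replicate 3 fell within the Asp+Pep range. Fmod, which takes part in collagen cross-linking and is plentiful in tendon, stood at 5.18, 10.1 and 5.54 CPM in Asp+Pep, at 14.3, 14.6 and 19.1 CPM in Asp and at 15.8, 6.05 and 41.0 CPM in Control. Asp+Pep lay below Asp with no overlap, whereas Control spread widely around both. Prelp, which anchors basement membranes to collagen, stood at 39.9, 60.6 and 48.3 CPM in Asp+Pep, at 32.6, 54.7 and 42.8 CPM in Asp and at 45.1, 54.2 and 52.0 CPM in Control. No group stood apart for Prelp. Ogn, a proteoglycan also called mimecan, stood at 43.0, 63.2 and 59.5 CPM in Asp+Pep, at 75.7, 121 and 52.1 CPM in Asp and at 58.0, 45.3 and 65.4 CPM in Control. Its groups overlapped too, with the 2 highest values both in Asp.

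Tnmd stood at 2.10, 2.18 and 1.54 CPM in Asp+Pep, at 2.88, 5.74 and 2.80 CPM in Asp and at 5.54, 1.76 and 3.69 CPM in Control. The 3 Asp+Pep libraries were close together and below all of Asp. Scx stood at 1.89, 0.937 and 1.44 CPM in Asp+Pep, at 1.97, 3.26 and 2.09 CPM in Asp and at 1.11, 1.30 and 1.66 CPM in Control. The transcription factor thus had its 3 highest values in the 3 Asp libraries. Comp, a pentameric glycoprotein of tendon and cartilage, stood at 1.74, 2.42 and 1.201 CPM in Asp+Pep, at 4.37, 5.62 and 4.32 CPM in Asp and at 3.71, 0.759 and 24.9 CPM in Control. The highest and the lowest Comp value of the whole series were both in Control, 32.7-fold apart.

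In Asp+Pep against Control, which asks how hydrogel with aspirin compares with no treatment, 9 of the 10 genes had a fitted level below Control, and none passed the test. The fitted log2 fold changes were largest for Comp (-2.45 ± 1.00, SE), Fmod (-1.59 ± 0.60) and Bgn (-1.31 ± 0.42), followed by Lum (-0.96 ± 0.47), Tnmd (-0.92 ± 0.48) and Aspn (-0.52 ± 0.38). Dcn (-0.14 ± 0.45), Ogn (-0.03 ± 0.32), Prelp (-0.02 ± 0.25) and Scx (0.07 ± 0.40) lay near 0, but their 95% intervals were wide: that of Dcn ran from -1.16 to 0.87. By edgeR's quasi-likelihood test with Benjamini-Hochberg adjustment over all 18259 genes, adjusted p was 0.987 to 0.998 for the 10 genes, and no gene of the genome passed 0.05 (percent called 0). At an unadjusted p under 0.05, 716 genes were found (3.92%), 3 of them members: Bgn, Fmod and Comp, all lower, where 2.18% of all genes were lower and 1.74% higher at that p. DESeq2 called 18 genes, none of them among the 10. Lum and Aspn were the 2 genes whose Asp+Pep and Control libraries did not overlap, both lower, against 6.3% of all genes lower and 6.85% higher. A fitted fold change below 0 was found for 52.9% of all genes. The median over the 10 genes was -0.72, beside -0.03 over all genes, and it was -0.58 without the 2 outlying libraries, where only Bgn (-1.11 ± 0.43) of the 10 had an unadjusted p under 0.05, beside 3% of all genes. Without Control replicate 3, Comp stood at -0.34, Fmod at -0.67 and Bgn at -0.96, and none of the 10 had an unadjusted p under 0.05.

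In Asp against Control, the comparison of aspirin alone with no treatment, the 10 genes were split. Scx (0.85 ± 0.41, log2 fold change and SE), Dcn (0.70 ± 0.45), Aspn (0.58 ± 0.38), Ogn (0.56 ± 0.32) and Lum (0.44 ± 0.47) had fitted values above Control. Bgn (0.08 ± 0.42) and Tnmd (0.05 ± 0.48) lay near 0, and Prelp (-0.22 ± 0.25), Fmod (-0.39 ± 0.59) and Comp (-1.03 ± 0.95) below it. None passed edgeR's test (adjusted p 0.753 to 0.984), none had an unadjusted p under 0.05, and no gene of the genome was called (percent called 0), with 1183 at an unadjusted p under 0.05 (6.48%, with 3.39% lower and 3.09% higher) and 101 called by DESeq2, none of them members. Scx was the 1 gene with no overlap, higher in Asp, against 5.54% of all genes higher and 5.44% lower. The median over the 10 genes was 0.26, beside 0.05 over all genes, with 3 of 10 below 0 where all genes had 46%. Without Control replicate 3, Comp turned to 1.09 and Fmod to 0.55, and 9 of the 10 were then above Control, with a median of 0.56. Without Control replicate 2 the median was 0.049, beside 0.054 over all genes, with 5 of the 10 above Control, and Comp stood at -1.58 with an unadjusted p of 0.047. Without the 2 outlying libraries the median was 0.13, Lum stood at 0.038 ± 0.44, and none of the 10 had an unadjusted p under 0.05.

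In Asp+Pep against Asp, which sets hydrogel with aspirin beside aspirin alone, 9 of the 10 genes again had fitted values below the group without hydrogel, and again none passed. Comp (-1.41 ± 0.97, log2 fold change and SE), Lum (-1.40 ± 0.48), Bgn (-1.39 ± 0.42), Fmod (-1.21 ± 0.60) and Aspn (-1.09 ± 0.38) were more than 2-fold lower in the fit. Tnmd (-0.97 ± 0.48), Dcn (-0.85 ± 0.45), Scx (-0.78 ± 0.41) and Ogn (-0.59 ± 0.32) were lower by less, and Prelp (0.19 ± 0.25) was the exception. Adjusted p by edgeR was 0.453 to 0.733, and no gene of the genome was called (percent called 0). Here 1996 genes had an unadjusted p under 0.05 (10.9%), and 3 of them were members: Bgn, Lum and Aspn, all lower, where 7.61% of all genes were lower and 3.32% higher. DESeq2 called 157 genes, none of them members, with Bgn nearest to the threshold at an adjusted p of 0.0584. In 5 of the 10 genes (Bgn, Fmod, Tnmd, Scx and Comp) every Asp+Pep library lay below every Asp library, against 8.75% of all genes, while 7.46% of all genes were higher without overlap and none of the 10. The median was -1.03, beside -0.05 over all genes of which 53.3% were below 0, and it was -0.87 without the 2 outlying libraries. In that fit only Bgn (-1.10 ± 0.46) of the 10 had an unadjusted p under 0.05, beside 4.26% of all genes, while Lum stood at -0.82 ± 0.48 and Aspn at -0.79 ± 0.45. Each pair of the 3 comparisons shares 1 group of libraries, so like directions in them are not separate evidence. A test of any difference between the 3 groups called none of the 10 and no gene of the genome (percent called 0). At an unadjusted p under 0.05 it found 1272 genes (6.97%), with Bgn and Lum among them, and DESeq2 called 153. Without the 2 outlying libraries that p was found for 821 genes (4.43%), none of them members.

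**Figure D2:**
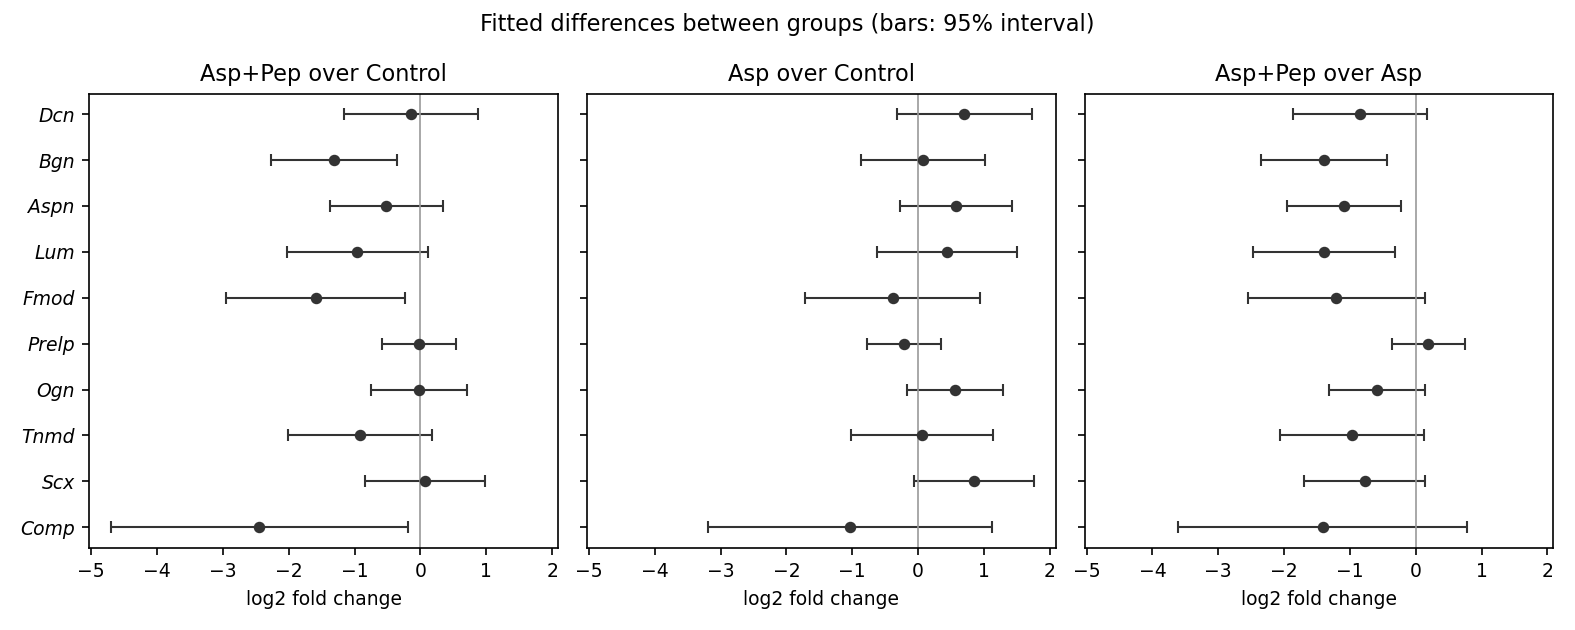
Fitted log2 fold changes of the 10 genes in the 3 comparisons (points) with 95% intervals (bars), from 1 edgeR fit over all 9 libraries. In Asp+Pep over Control and in Asp+Pep over Asp 9 of the 10 points lie below 0, and the interval of Comp is the widest in each panel.

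A ratio of 2 genes within a library does not depend on how libraries are scaled. Bgn relative to Dcn, as log2 of the FPKM ratio, was -1.22, -1.85 and -2.63 in Asp+Pep, -1.54, -1.96 and -0.29 in Asp and -0.96, -1.55 and -0.06 in Control. The paralogues were thus nearly level in Control replicate 3, whereas Dcn was 6.21 times as high as Bgn in Asp+Pep replicate 3. The group means were -1.90 ± 0.71 in Asp+Pep, -1.26 ± 0.87 in Asp and -0.86 ± 0.75 in Control (SD, n = 3 each), so the gap of -1.04 between Asp+Pep and Control was not much above the spread within groups, and all 3 groups overlapped. Lum relative to Dcn averaged -1.12 ± 0.62 in Asp+Pep, -0.66 ± 0.29 in Asp and -0.35 ± 0.21 in Control, again with overlap. Prelp relative to Dcn averaged -2.79 ± 0.28 in Asp+Pep, -3.77 ± 0.86 in Asp and -2.93 ± 0.40 in Control. Asp was lowest there through replicates 1 and 2, in which Dcn was 24.1 and 14.4 times as high as Prelp. Dcn made up 51.6% of the summed FPKM of the 10 genes in Asp+Pep replicate 3 and 26.9% in Control replicate 3, the extremes of the 9 libraries.

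**Figure D3:**
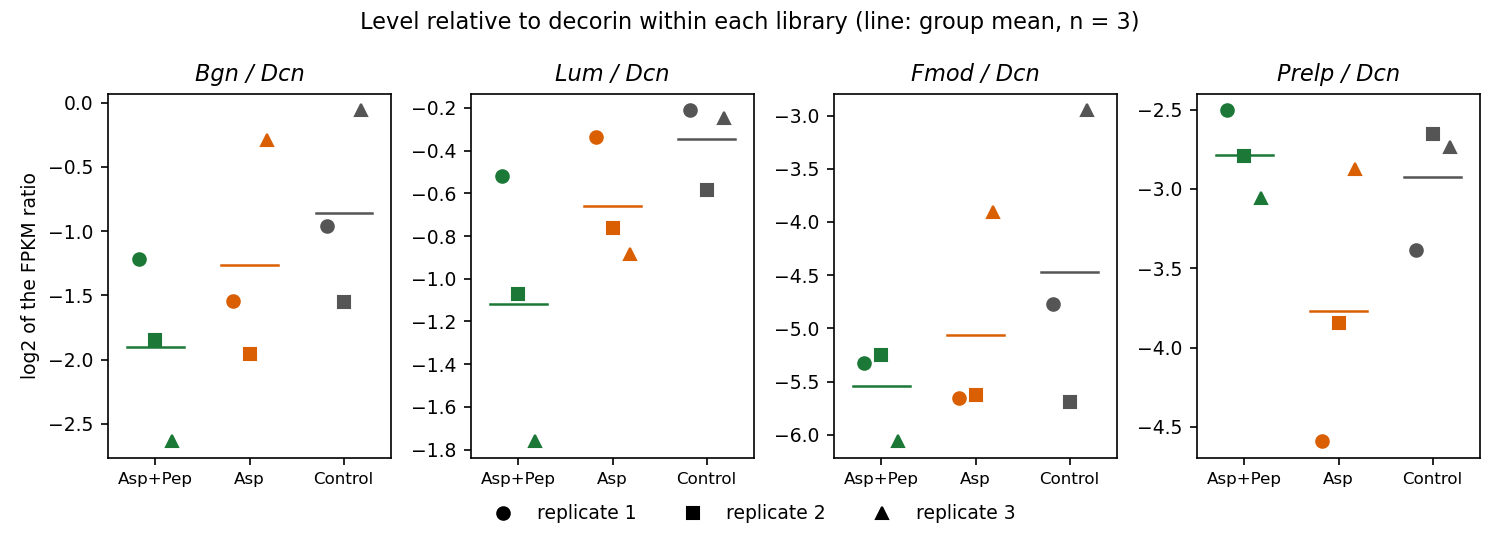
Log2 ratio of the FPKM of Bgn, Lum, Fmod and Prelp to that of Dcn in each library, by group; points are libraries and lines the group mean of 3. For Bgn the means run from -1.90 in Asp+Pep over -1.26 in Asp to -0.86 in Control, and the libraries of all groups overlap.

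Likeness across the 9 libraries is given here as a description, since the libraries share groups, depth and tissue make-up. Lum and Aspn were most alike (Pearson's r = 0.96 of log2 CPM, n = 9), although they lie on different chromosomes. Dcn went with Ogn (0.86), Aspn (0.84) and its neighbour Lum (0.79). Fmod went with Comp (0.94), Bgn with Fmod (0.91) and Bgn with Comp (0.82). These 7 pairs had r of 0.84 to 0.95 without the 2 outlying libraries. Tnmd had r = 0.75 with Bgn and 0.73 with Lum, and Bgn and Lum had r = 0.70. Bgn and Dcn had r = 0.36, and the neighbours Fmod and Prelp r = 0.01. Of the 45 pairs, 38 had r above 0, with a median of 0.47, which was 0.43 without the 2 outlying libraries. Prelp had r below 0 with 7 of the 9 others over all libraries but with only 3 of 9 without the 2 outlying ones, where it was 0.56 with Dcn and 0.49 with Ogn. Within genomic clusters r was thus 0.79 for Dcn and Lum, 0.76 for Aspn and Ogn and 0.01 for Prelp and Fmod. Pairs across clusters reached higher values, as Lum with Aspn (0.96), Dcn with Ogn (0.86) and Dcn with Aspn (0.84) did.

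**Figure D4:**
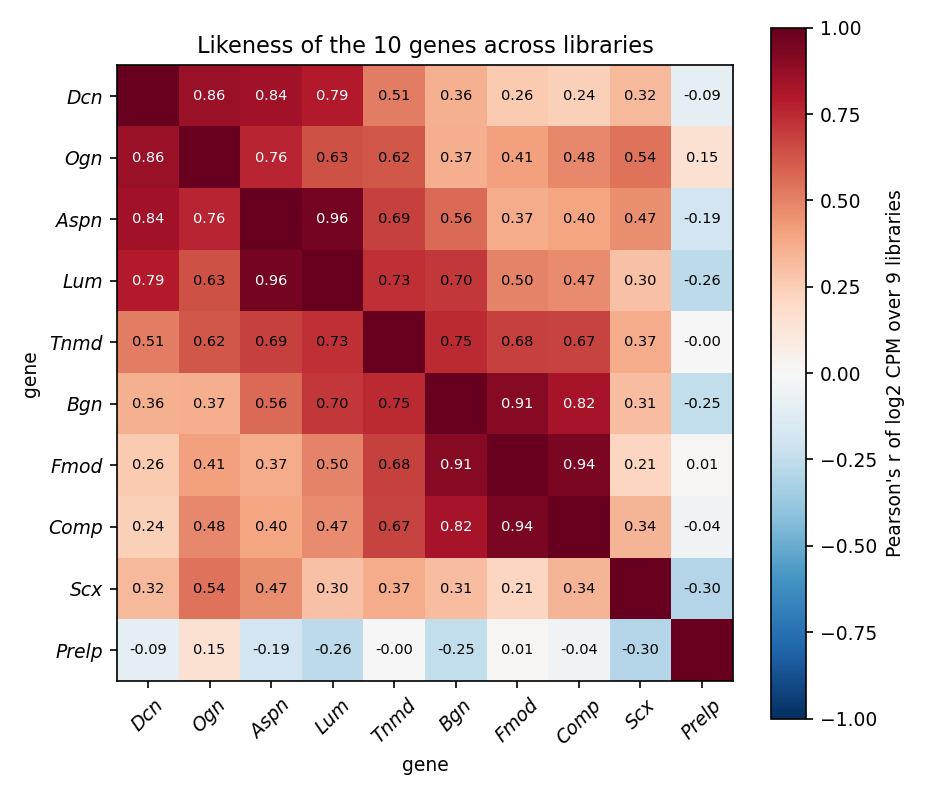
Pearson's r of log2 CPM over the 9 libraries for each pair of the 10 genes, from blue (negative) to red (positive). Lum with Aspn (0.96) and Fmod with Comp (0.94) are the darkest cells off the diagonal, and the row of Prelp is pale.

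Of 14572 genes averaging at least 1 CPM, those most like the mean pattern of the 10 genes were Serf1 (r = 0.958, n = 9), Tbrg1 (0.955), Fap (0.951), Fam114a1 (0.945) and Mfap5 (0.943). Without the 2 outlying libraries their r was 0.940, 0.947, 0.953, 0.939 and 0.982 in the same order. Fap encodes a protease of activated fibroblasts, and Mfap5 a glycoprotein of elastic microfibrils. Taken singly, Bgn was closest to Col11a1 (r = 0.970), a fibril-forming collagen of cartilage that is also made in developing tendon, and Fmod to Col8a2 (0.966), a short-chain collagen. The genes closest to the other members were not collagens. They were Arf4 for Lum (0.998), Ppp1r14b for Scx (0.970), Pcgf5 for Prelp (0.970) and Atp6ap2 for Aspn (0.969). For Tnmd the closest was Ddah2 (0.966), for Dcn C1ra (0.962), for Comp Stat3 (0.947) and for Ogn Kcnk5 (0.933). Each was picked as the highest among all genes ranked, over only 9 libraries, so a high r is no sign of a link by itself.

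The 11 other small leucine-rich proteoglycans summed to 38.4 to 58.1 CPM in Asp+Pep, 43.5 to 55.1 CPM in Asp and 55.3 to 62.7 CPM in Control. Per length, Podn averaged 3.67 FPKM in Asp+Pep, 5.07 FPKM in Asp and 5.75 FPKM in Control, beside 1.69, 5.06 and 5.63 FPKM for Fmod in the same groups. The neighbours of the members were among them: Omd averaged 1.35 ± 0.75 CPM in Asp+Pep, 2.22 ± 2.34 CPM in Asp and 1.27 ± 0.18 CPM in Control (SD, n = 3 each), with 4.92 CPM in Asp replicate 2. Ecm2 averaged 20.5 ± 2.3 CPM in Asp+Pep, 16.2 ± 4.9 CPM in Asp and 22.2 ± 4.9 CPM in Control. Kera stayed below 0.71 CPM in every library, and Epyc and Optc, with Chad and Nyx, were too low to be tested. None of the 7 tested genes passed in any comparison. The smallest unadjusted p in Asp+Pep against Control were those of Tsku (-0.89 ± 0.43, log2 fold change and SE), Podn (-0.48 ± 0.30) and Podnl1 (-1.64 ± 1.04), and in Asp+Pep against Asp those of Tsku (-0.97 ± 0.43) and Podnl1 (-2.40 ± 1.06), both under 0.05. At that p 7.61% of all genes were lower in Asp+Pep against Asp. The gene that overlaps Aspn and Ogn, Cenpp, held 563 counts in all libraries together, and its log2 fold changes were 0.47 ± 0.49 in Asp+Pep against Control, 1.63 ± 0.50 in Asp against Control and -1.16 ± 0.49 in Asp+Pep against Asp. Bop1, around Scx, stood at 0.10 ± 0.24, 0.33 ± 0.24 and -0.22 ± 0.24 in the same order of comparisons. Whether counting used strand is not given, and apart from the 7 bases in Aspn these pairs share no exonic base. Prelp shares 350 exonic bases with the antisense gene Gm15851, which held 6 counts in all.

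Other genes of tendon and its sheath, 26 in a list of collagens, matricellular proteins and transcription factors, summed to 4837 to 7131 CPM in Asp+Pep, 6801 to 10702 CPM in Asp and 7165 to 11733 CPM in Control. The highest Asp+Pep library thus lay within the range of Asp and below all of Control. Of the 25 tested, none passed in any comparison. Set against Control, Asp+Pep had 22 of them below 0 and 5 at an unadjusted p under 0.05, all lower, led by Col11a1 (-2.31 ± 0.72), the matricellular protein tenascin-C (Tnc, -2.13 ± 0.71) and fibulin-1 (Fbln1, -0.76 ± 0.27). In Asp against Control 16 were above 0 and 3 had such a p, all higher: thrombospondin-2 (Thbs2, 0.80 ± 0.24), lubricin (Prg4, 1.03 ± 0.33) and collagen XII (Col12a1, 1.43 ± 0.54). In Asp+Pep against Asp 21 were below 0 and 8 had such a p, all lower, led by Col12a1 (-2.88 ± 0.57), Fbln1 (-1.34 ± 0.27) and Thbs2 (-1.11 ± 0.24). Of all genes, 2.18% were lower at that p in Asp+Pep against Control and 7.61% in Asp+Pep against Asp. In Asp against Control 3.09% of all genes were higher. These counts are from the fit over all 9 libraries. Col12a1, a collagen that links fibrils, stood at 7.59, 8.61 and 7.91 CPM in Asp+Pep, at 72.6, 20.3 and 85.1 CPM in Asp and at 28.6, 9.56 and 27.8 CPM in Control. Its Asp+Pep libraries were thus within about 1 CPM of each other and below the other 6, while Asp and Control overlapped. Mkx, a homeobox factor of tendon, stayed below 0.75 CPM in every library.

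The enzymes that build chondroitin and dermatan sulphate chains, which Dcn and Bgn carry, showed no called gene either. Of 26 tested, 19 were below 0 in Asp+Pep against Control, with none at an unadjusted p under 0.05. In Asp against Control 17 were above 0, and Dse (0.70 ± 0.27) and Dsel (0.69 ± 0.28), the epimerases that make dermatan sulphate, had such a p. Set against Asp, Asp+Pep had 18 of them below 0 and 6 at such a p, all lower, led by Dse (-0.95 ± 0.28), Dsel (-0.88 ± 0.28) and the chondroitin polymerising factor Chpf (-0.66 ± 0.22). Of all genes, 3.09% were higher at that p in Asp against Control and 7.61% lower in Asp+Pep against Asp. Of 10 tested genes for keratan sulphate chains, which Lum, Fmod and Kera carry, 7 were below 0 in Asp+Pep against Control, 5 in Asp against Control and 8 in Asp+Pep against Asp. Of 19 other tested proteoglycans, 16 were below 0 in Asp+Pep against Control, 10 in Asp against Control and 11 in Asp+Pep against Asp. Of all genes, 52.9%, 46% and 53.3% were below 0 in the same order. At an unadjusted p under 0.05, the keratan sulphate genes had 0, 1 and 1 lower and none higher. The other proteoglycans had 1, 1 and 3 lower and 0, 0 and 1 higher. Of all genes, 2.18%, 3.39% and 7.61% were lower at that p.

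Markers of cells that make these genes, and of neighbouring tissues, varied between libraries as well. The 22 fibroblast markers summed to 3417 to 4074 CPM in Asp+Pep, 2768 to 5267 CPM in Asp and 4256 to 4844 CPM in Control. All Asp+Pep libraries were below all Control libraries in that sum. Of the 22, 20 were below 0 in Asp+Pep against Control, with a median log2 fold change of -0.29, and 1 had an unadjusted p under 0.05 (Col6a2, -0.68 ± 0.29). In Asp against Control 9 were below 0, with a median of 0.07, and 1 had such a p, higher, beside 3.09% of all genes. In Asp+Pep against Asp 19 were below 0, with a median of -0.42. There 4 had such a p, all lower, beside 7.61% of all genes. Pdgfra, the only defining marker of these cells given here, averaged 59.4 ± 17.7 CPM in Asp+Pep, 73.6 ± 16.4 CPM in Asp and 65.6 ± 9.97 CPM in Control (SD, n = 3 each). Their part in the values of the 10 genes was not tested.

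The 18 cartilage and bone genes found in the table summed to 17.4 to 20.2 CPM in Asp+Pep, 18.2 to 22.9 CPM in Asp and 15.8 to 29.4 CPM in Control, the top value being Control replicate 3, the library with the highest Comp, Fmod and Bgn. There Ibsp, a bone matrix protein, was at 5.003 CPM, against at most 0.328 CPM elsewhere, and Sp7, a factor of bone-forming cells, at 1.86 CPM, against at most 0.800 CPM elsewhere. Among the other defining markers, of which Acan is not given here, Bglap was at 0 in that library, Matn1 at 0.058 CPM and Col2a1 at 0.349 CPM. The 11 rows of the leukocyte list summed to 396 to 1057 CPM in Asp+Pep, 1092 to 2614 CPM in Asp and 437 to 1310 CPM in Control. Asp was above Asp+Pep in that sum with no overlap, but only narrowly, as Asp+Pep replicate 2 and Asp replicate 3 nearly touched. The sum of the 10 genes was 768 to 1192 CPM in Asp+Pep and 1211 to 2375 CPM in Asp, nearly touching in the same libraries. Dcn, the largest part of that sum in these groups, overlapped between them. Of all genes taken singly, 8.75% were lower in Asp+Pep than in Asp without overlap. The part of either marker list in the result was not tested.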

How the data were processed

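Leg muscle RNA from 9 mice was made into libraries with a SMARTER mRNA-Seq kit, as the labels' protocols say. Whole-number counts per Ensembl gene, not normalised, and an FPKM table of the same genes were deposited by the authors. Per the submitters' processing notes, reads were placed on mm10. What aligned and counted them, with which annotation and strand setting, is not given in the sources used here. Among 10432 genes, 99.2% of ratios of scaled counts to FPKM lay within 1% of 1 constant per gene. Groups came from the treatment labels. Each title holds a code of unknown meaning. Its first number was 9 in Control, 8 in Asp+Pep and 7 in Asp, except for 10 in Asp replicate 3. That library was the Asp library low for Dcn, Lum and Aspn, and any link to its code was not tested. A batch that the code might mark between groups cannot be told apart from treatment. All pairs of libraries differed by more than sampling noise (smallest chi-square per degree of freedom 70.5).

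The test was edgeR's quasi-likelihood test (4.0.16, R 4.3.3) on all 9 libraries, with a term for group alone, TMM scaling, filterByExpr (count 10, total 15) and Benjamini-Hochberg adjustment at 0.05; the common biological coefficient of variation was 0.503. DESeq2 1.42.0, limma 3.58.1 and the other alternatives are in the closing section. Tests were tried on simulated data with known changes. Replicate numbers of Asp and Control deviated together (correlations 0.133 to 0.615), as read from the data and not from the labels. Those of Asp+Pep and Control (-0.236 to 0.354) and of Asp+Pep and Asp (-0.441 to 0.482) did so with mixed signs. A block on replicate number changed no call in Asp against Control. A gene with 0 counts lies below 0.0554 to 0.100 CPM (3 counts, counting error only). The members and gene lists were chosen with earlier results of these data known. Named are all members, up to 3 genes of smallest p per list and comparison, neighbours in the genome and the 5 genes most like the members. Col12a1 and Mkx levels and the gene closest to each member were picked after their values were seen.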

Additional observations from a re-analysis of the deposited data

How the results depend on the processing

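No member was called by any alternative tried, the lowest adjusted p being 0.0584 (Bgn, Asp+Pep against Asp, DESeq2) and, among edgeR fits, 0.153. Of 570 fold changes of members under the alternatives, 544 kept their direction and 26 reversed. Over all genes edgeR called 0, while DESeq2 called 18 in Asp+Pep against Control, 101 in Asp against Control, 157 in Asp+Pep against Asp and 153 for any difference. The replicate block called 1 gene in Asp+Pep against Asp, where same-numbered libraries deviated from -0.441 to 0.482. It changed no other call. Leaving out 1 library gave 0 to 2 calls in Asp+Pep against Asp and 0 to 1 for any difference. The members' median log2 fold change then ran from -0.89 to -0.44 in Asp+Pep against Control, from 0.049 to 0.56 in Asp against Control and from -1.18 to -0.74 in Asp+Pep against Asp. Scaling by library size alone put the all-gene median at -0.25, 0.27 and -0.51 in the 3 comparisons, and the members' median in Asp+Pep against Asp to -1.51.

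Reversed directions, on the log2 scale and all of uncalled values, were as follows. In Asp+Pep against Control, Scx stood at -0.13 (library size alone), -0.055 and -0.16 (FPKM with pseudocounts 1 and 0.1), -0.19 (without Asp+Pep replicate 1) and -0.054 (without Control replicate 1), with up to 0.30 without Asp+Pep replicate 2. Dcn stood at 0.093 and 0.026 without those same libraries. Ogn stood at 0.13 without Asp+Pep replicate 1 and 0.092 without Control replicate 3 (lowest -0.17), and Prelp at 0.11 without Asp+Pep replicate 1 and 0.015 without Control replicate 2. In Asp against Control, Fmod stood at 0.039 (voom), 0.095 and 0.18 (FPKM) and 0.55 (without Control replicate 3; lowest -0.83), and Comp at 0.31 (voom), 0.25 (FPKM with pseudocount 0.1) and 1.09 (without Control replicate 3; lowest -1.58). Bgn stood at -0.012 without Asp replicate 1, -0.24 without Control replicate 2 (highest 0.45) and -0.0037 without both outlying libraries, and Tnmd at -0.37 without Asp replicate 2 and -0.29 without Control replicate 2 (highest 0.48). In Asp+Pep against Asp, Prelp stood at -0.21 (library size alone), -0.19 and -0.21 (FPKM). The cause was not tested. Members with an unadjusted p under 0.05 numbered 0 to 5, 0 to 4 and 1 to 5 in the 3 comparisons as 1 library was left out. The share of all genes with such a p was then 1.69 to 6.45%, 3.24 to 14.2% and 4.7 to 22%. In Asp+Pep against Control members numbered 0 without Control replicate 3 (3.51% of all genes) and 5 without Asp replicate 3 (4.73%). In Asp against Control they numbered 4 without Asp replicate 3, where 14.2% of all genes had such a p. In Asp+Pep against Asp 22% of all genes had one in that fit. Counts of the members ran from 31 (Scx) to 66319 (Dcn) in a library, so counting error is largest, relative to the level, for Scx, Comp and Tnmd.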

Other observations

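No marker of the following cell types was called in any comparison. The 10 endothelial markers summed to 357 to 518 CPM in Asp+Pep, 239 to 333 CPM in Asp and 426 to 729 CPM in Control, and 9 of them had an unadjusted p under 0.05 in Asp against Control, all lower, where 3.39% of all genes were. The 10 adipocyte markers summed to 3938 to 10136 CPM in Asp+Pep, 3051 to 6110 CPM in Asp and 7766 to 11064 CPM in Control. All 10 were below 0 in Asp against Control, 5 of them at such a p. The 8 Schwann cell markers summed to 45.3 to 134.9 CPM in Asp+Pep, 89.3 to 162.5 CPM in Asp and 83.1 to 137.6 CPM in Control. The 6 synovial lining markers summed to 325 to 665 CPM in Asp+Pep, 129 to 370 CPM in Asp and 237 to 368 CPM in Control. In Asp against Control 4 of these 6 were below 0, while 2 had such a p, both higher, beside 3.09% of all genes. Prg4, named above among the higher genes of tendon and its sheath, is also a defining marker of the synovial lining. The 8 epidermis markers summed to 16.6 to 20.8 CPM in Asp+Pep, 7.4 to 23.8 CPM in Asp and 17.6 to 198 CPM in Control. The top value was that of Control replicate 1, against at most 31.5 CPM elsewhere. Within Control, Dcn, Lum, Aspn and Tnmd were highest in that library, and the other members were not. Without it the members' median in Asp+Pep against Control was -0.45, beside -0.72 in the fit over all libraries. Any link of the members to these markers was not tested.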
